A study of Mus musculus with 2 samples.

Results

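The endocannabinoid system genes described here are Cnr1, Dagla, Daglb, Mgll, Faah and Napepld. They were chosen by name, as the rows of both count matrices whose Ensembl identifier maps to these symbols, and they make up 6 of 32285 genes. All 6 were found in both matrices. Their RNA was followed over nuclei of the amygdala from mice aged 6 to 8 weeks with the strain given as C57BL6/J, in 1 library labelled Sema6d-/- (KO) and 1 library labelled wild type (WT). Sema6d encodes a transmembrane semaphorin, a guidance molecule, and no other allele, agent or treatment is named for either library. The labels state neither the number and sex of the animals behind each library nor the part of Sema6d that is deleted.

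Endocannabinoids are lipid messengers that are made on demand in the membrane of a neuron and often act backwards across the synapse. They bind the CB1 receptor on axon terminals, which couples to Gi/o proteins and lowers transmitter release. The main messengers are 2-arachidonoylglycerol (2-AG) and anandamide, each with its own enzymes of synthesis and breakdown. In the amygdala this signalling is known for its part in fear extinction and stress responses. Cnr1 encodes the CB1 receptor. Dagla and Daglb encode the diacylglycerol lipases that make 2-AG, and Mgll encodes monoacylglycerol lipase, which breaks it down. Faah encodes fatty acid amide hydrolase, which breaks down anandamide, and Napepld encodes a phospholipase D that is one of the routes to anandamide.

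In the mm10 build, the GENCODE annotation places Cnr1 on chromosome 4 from 33924593 to 33948831 on the plus strand and Faah on chromosome 4 from 115967145 to 116017926 on the minus strand. Daglb lies on chromosome 5 from 143464584 to 143505942 on the plus strand, Napepld on chromosome 5 from 21662901 to 21701396 on the minus strand, Mgll on chromosome 6 from 88724412 to 88828360 on the plus strand and Dagla on chromosome 19 from 10245265 to 10304877 on the minus strand. No other annotated gene overlaps Cnr1 or Faah. Dagla overlaps 1 antisense gene, Daglb overlaps Rac1 on the other strand, Napepld overlaps 1 pseudogene on the other strand, and Mgll overlaps 5 gene models, 3 of them on its own strand. Whether the authors' counting used strand is not given in the sources used here, so reads shared with these neighbours cannot be told apart.

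RefSeq promoters (GRCm38.p6, the assembly of mm10) reach from 250 bases before to 50 bases after a transcript start, and 5 of the 6 genes matched, with 8 starts in all. The 4 promoters below belong to genes whose RNA differed most between classes of nuclei in the values that follow, and for Cnr1 and Mgll they are those of the most upstream start. They are written 5' to 3' on the strand of the gene. Capitals mark the GC box (GGGCGG, or CCGCCC on the other strand) and the E-box (CACGTG, which reads the same on both strands). The TATA box (TATAAA) and the CRE (TGACGTCA) were also searched on both strands, and none of the 8 promoters held either. No match overlapped another.
Cnr1, chr4:33924014-33924313, plus strand: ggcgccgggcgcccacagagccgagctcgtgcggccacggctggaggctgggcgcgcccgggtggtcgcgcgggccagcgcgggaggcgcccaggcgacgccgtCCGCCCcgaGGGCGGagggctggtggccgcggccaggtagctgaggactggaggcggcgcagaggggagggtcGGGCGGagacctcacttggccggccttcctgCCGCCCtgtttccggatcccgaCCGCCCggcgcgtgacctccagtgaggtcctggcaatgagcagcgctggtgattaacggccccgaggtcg
Mgll, chr6:88724162-88724461, plus strand: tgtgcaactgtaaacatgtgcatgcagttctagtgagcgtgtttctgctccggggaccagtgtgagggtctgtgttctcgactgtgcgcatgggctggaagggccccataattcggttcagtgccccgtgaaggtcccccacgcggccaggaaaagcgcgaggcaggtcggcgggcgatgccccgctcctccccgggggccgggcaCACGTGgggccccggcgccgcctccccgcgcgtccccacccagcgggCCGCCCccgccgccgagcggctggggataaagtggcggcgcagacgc
Faah, chr4:116017875-116018174, minus strand: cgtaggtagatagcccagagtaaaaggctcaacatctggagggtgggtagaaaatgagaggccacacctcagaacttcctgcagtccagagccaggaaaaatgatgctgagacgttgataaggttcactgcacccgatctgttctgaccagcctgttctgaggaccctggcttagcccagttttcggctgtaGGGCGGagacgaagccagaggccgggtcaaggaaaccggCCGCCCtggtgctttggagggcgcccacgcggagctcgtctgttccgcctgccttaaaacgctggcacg
Napepld, chr5:21701573-21701872, minus strand: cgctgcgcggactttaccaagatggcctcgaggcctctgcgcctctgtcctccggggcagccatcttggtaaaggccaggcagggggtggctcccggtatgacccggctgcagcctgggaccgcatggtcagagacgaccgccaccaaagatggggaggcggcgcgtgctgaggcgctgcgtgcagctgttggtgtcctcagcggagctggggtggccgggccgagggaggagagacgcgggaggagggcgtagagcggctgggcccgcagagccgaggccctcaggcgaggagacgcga

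The printed Cnr1 promoter, 1 of 3, held 5 GC boxes and 76.3% G and C, while the other two held no GC box, 1 with an E-box at 69.0% and 1 with no motif at 46.3%. The Faah promoter held 2 GC boxes at 57.7% G and C, and the printed Mgll promoter held 1 GC box and 1 E-box at 70.0%, while its second promoter held 1 GC box at 72.3%. The Napepld promoter held none of the 4 motifs at 70.3%. Over 32851 RefSeq mouse promoters of the same length, the median was 52.7% G and C, 35.7% held a GC box, 7.15% an E-box, 13.6% a TATA box and 1.79% a CRE. These matches describe the letters in these windows.

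After filtering, the KO library held 7911 nuclei with 56736373 UMIs and a median of 6418 UMIs per nucleus, and the WT library 10369 nuclei with 79305700 UMIs and a median of 7196. UMIs are molecules counted by their barcode. Sema6d itself stood at 686 UMIs per 1000000 UMIs (CPM) in KO nuclei and 632 CPM in WT nuclei. Since the deleted part is not known, these tags may lie outside it, and the level of Sema6d does not check the labels. Nuclei were put into classes by UMIs of marker genes, none of which is one of the 6 genes. The median share of mitochondrially encoded UMIs was 0.424% in KO nuclei and 0.749% in WT nuclei, and 112 cell barcodes occurred among the kept nuclei of both libraries. Glial nuclei made up a larger share of the KO library, with 1034 KO and 517 WT oligodendrocytes and 219 KO and 111 WT microglia.

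The gates gave 965 KO and 1291 WT excitatory neurons and 3143 KO and 5219 WT inhibitory neurons. Within them, 8 subtypes had at least 50 nuclei in each library. These were D1 medium spiny neurons (378 KO, 683 WT), D2 medium spiny neurons (468 KO, 887 WT), CGE-type neurons (111 KO, 125 WT), MGE-type neurons (201 KO, 250 WT), Foxp2 Tshz1 neurons (215 KO, 346 WT), Prlr neurons (90 KO, 132 WT), Rspo2 neurons (117 KO, 189 WT) and Nr4a2 Ntng2 neurons (73 KO, 133 WT). D1 and D2 medium spiny neurons are the striatal-type GABA neurons with dopamine receptors, and CGE and MGE are the ganglionic eminences in which cortical-type interneurons arise. Markers that no gate used were higher in the class they mark in both libraries, with 2 exceptions. No such marker was checked for microglia or oligodendrocyte precursors. Gpr6, a marker of D2 neurons, stood at 146 CPM in D2 nuclei against 16.5 CPM in all other nuclei of the KO library, and at 95.2 CPM against 16.9 CPM in WT. Sst stood at 582 CPM in MGE-type nuclei against 64.6 CPM elsewhere in KO, and at 481 CPM against 50.4 CPM in WT. The exceptions were Lamp5 in CGE-type nuclei, with 29.0 CPM against 40.6 CPM elsewhere in KO and 35.7 CPM against 35.6 CPM in WT, and the neuron marker Rbfox3 in inhibitory neurons, with 505 CPM against 473 CPM elsewhere in KO and 614 CPM against 623 CPM in WT.

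All levels are UMIs of the gene per 1000000 UMIs of the class. Brackets hold exact 95% Poisson intervals, or for ratios exact 95% binomial intervals, which cover counting error only. With 1 library per genotype, KO and WT were compared by their values and these intervals, with no test. Differences between classes were tested with edgeR's quasi-likelihood test on UMIs summed per library and class, with the library as a block. Each test used 4 sums, which leaves 1 residual degree of freedom, and the tool shares the spread across genes. The SE and the p-values, which are adjusted by Benjamini-Hochberg over all genes, rest on that shared spread. They do not measure the spread of 1 gene by itself between these 2 libraries, which also differ in genotype.

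**Figure D1:**
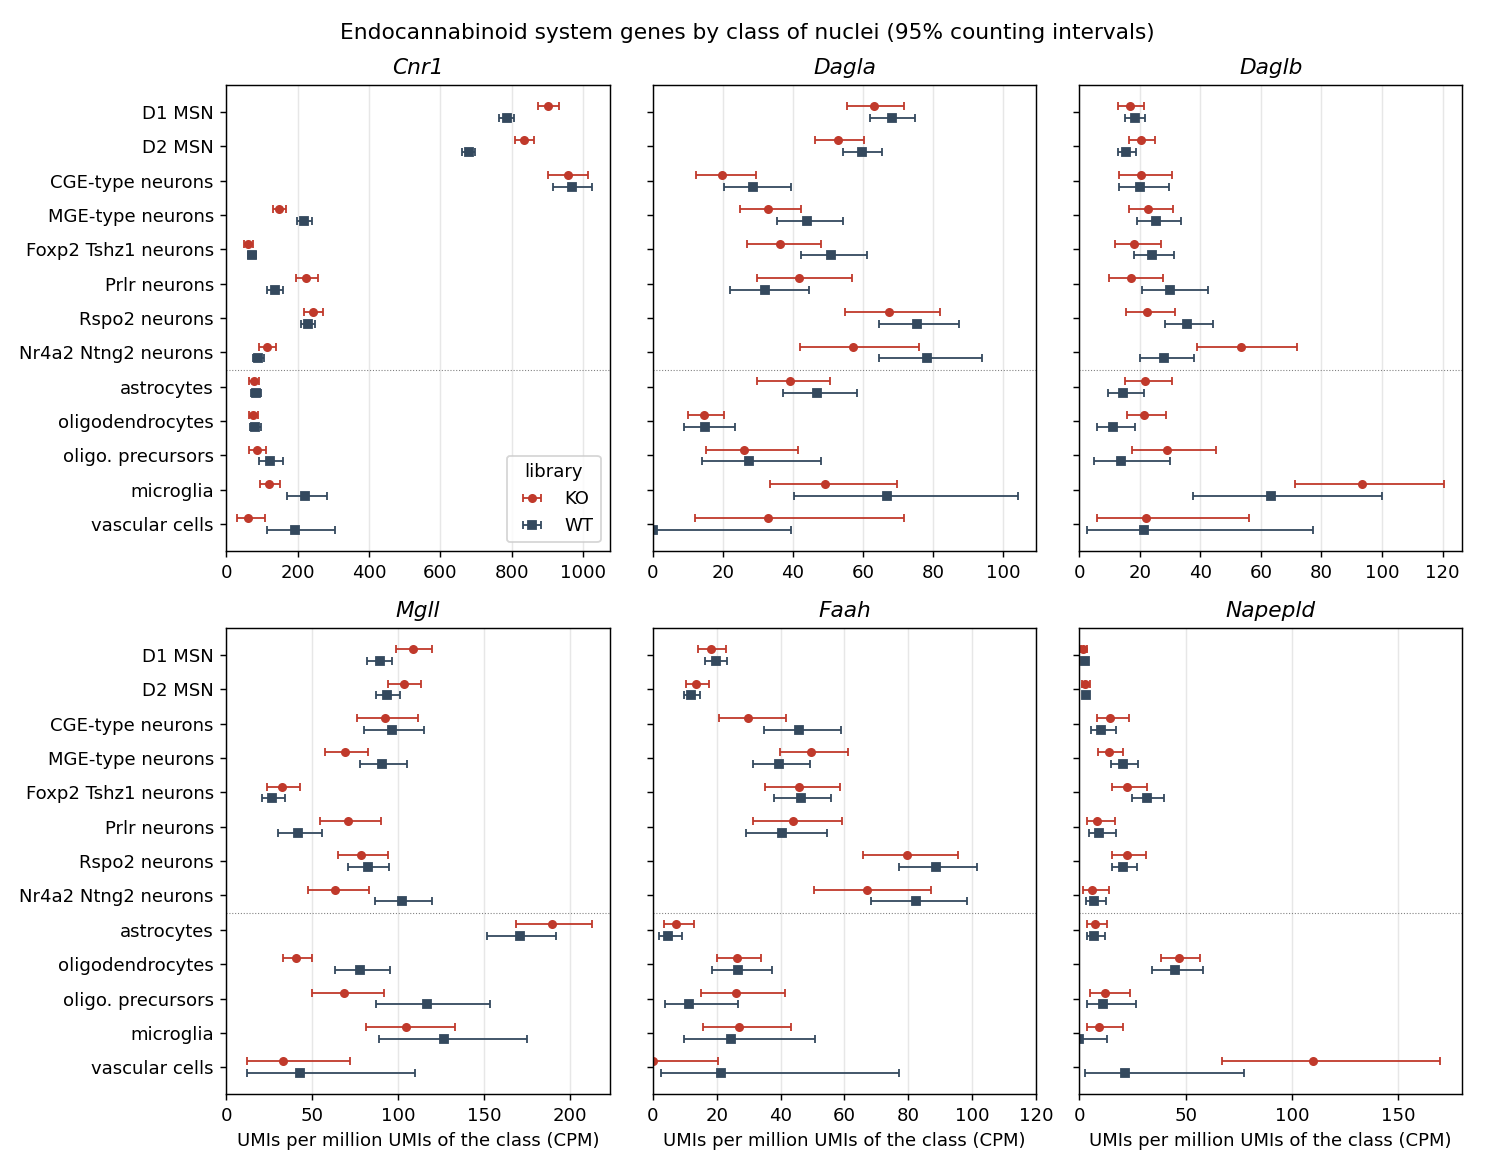
Level of each of the 6 genes in 13 classes of nuclei, in CPM (linear axes from 0), for the KO library (circles) and the WT library (squares), with bars for exact 95% counting intervals. Cnr1 stands apart in CGE-type, D1 and D2 neurons (680 to 970 CPM), Mgll is highest in astrocytes, Daglb in microglia, Faah in Rspo2 and Nr4a2 Ntng2 neurons, and Napepld is high in oligodendrocytes.

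Cnr1, the receptor gene, was concentrated in 3 classes of inhibitory neurons. CGE-type neurons held 957 CPM in KO (902 to 1015) and 970 CPM in WT (917 to 1026). D1 neurons held 903 CPM in KO (873 to 933) and 786 CPM in WT (765 to 808). D2 neurons held 836 CPM in KO (808 to 863) and 680 CPM in WT (662 to 699). Over both libraries, the CGE-type interval lay above those of 11 of the other 12 classes, and D1 neurons overlapped it. Below these came Rspo2 neurons with 243 CPM in KO and 228 CPM in WT, then MGE-type neurons with 147 CPM in KO and 218 CPM in WT, and Prlr neurons with 223 CPM in KO and 136 CPM in WT. Nr4a2 Ntng2 neurons held 114 CPM in KO and 89.8 CPM in WT. The lowest class was Foxp2 Tshz1 neurons, with 60.5 CPM in KO (48.2 to 74.95) and 71.2 CPM in WT (60.8 to 82.9), although these are GABA neurons too. Of the 12 steps between neighbours in the order of means, 1 was wider than the intervals of both libraries.

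Inhibitory neurons as a whole held 455 CPM of Cnr1 in KO and 454 CPM in WT, against 142 CPM in KO and 125 CPM in WT excitatory neurons. Cnr1 was higher in inhibitory neurons by 1.70 ± 0.07 on the log2 scale (SE, edgeR, adjusted p = 1.92e-46), in both libraries. Of all genes tested in that comparison, 22.3% were higher and 23.2% lower at an adjusted p under 0.05. Between CGE-type and MGE-type neurons the difference was 2.46 ± 0.11 (edgeR, adjusted p = 2.59e-99). In that comparison 7.19% of all genes were higher and 6.14% lower. The Cnr1 difference was 2.70 without the WT library and 2.15 without the KO library. D2 neurons were slightly lower than D1 neurons, by -0.13 ± 0.04 (edgeR, adjusted p = 0.011), where 5.56% of all genes were higher and 6.31% lower. That small difference missed the threshold with DESeq2, with stricter gates and without the block.

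CGE-type neurons were themselves divided. Nuclei with at least 1 UMI of Cck, the gene of the peptide cholecystokinin, held 1940 CPM of Cnr1 in KO (44 nuclei, 1819 to 2067) and 1943 CPM in WT (48 nuclei, 1823 to 2068). Nuclei with no Cck UMI held 249 CPM in KO (67 nuclei) and 347 CPM in WT (77 nuclei). Cck is known as a marker of CB1-bearing basket cells in cortex, hippocampus and basolateral amygdala. The median Cck-positive nucleus had 12 Cnr1 UMIs in KO and 12.5 in WT, and the highest had 117 in KO and 74 in WT. Median depths were close, at 10221.5 UMIs in KO and 9226.5 in WT nuclei with Cck, and 8786 in KO and 8682 in WT nuclei without it. The split by Cck was chosen after the data had been seen. Among CGE-type nuclei, the tenth with most Cnr1 held 55.0% of its UMIs in KO and 51.4% in WT, against 32.9% in KO and 31.1% in WT D1 neurons.

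Cnr1 also differed among excitatory neurons. Leiden clusters, named here by their leading genes, were used for this, and since all genes entered the clustering the values are a description. Excitatory neurons of the cluster led by Frem1, Hgf and Man1a held 335 CPM in KO (122 nuclei) and 362 CPM in WT (207 nuclei). The cluster led by Svil, Ccn2 and Trabd2b held 28.7 CPM in KO (157 nuclei) and 34.5 CPM in WT (271 nuclei), the lowest of the 7 excitatory clusters with 50 nuclei in each library. Rspo2 neurons spread over both. Their nuclei in the Frem1 cluster held 454 CPM in KO (43 nuclei) and 416 CPM in WT (79 nuclei), and those in the Svil cluster 19.7 CPM in KO (41 nuclei) and 16.7 CPM in WT (53 nuclei). Among 10 inhibitory clusters, Cnr1 ran from 1485 CPM in KO and 1423 CPM in WT in the cluster led by Frem1, Vip and Pde5a to 68.9 CPM in KO and 80.8 CPM in WT in the cluster led by Chst9, Tshz1 and March3.

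**Figure D2:**
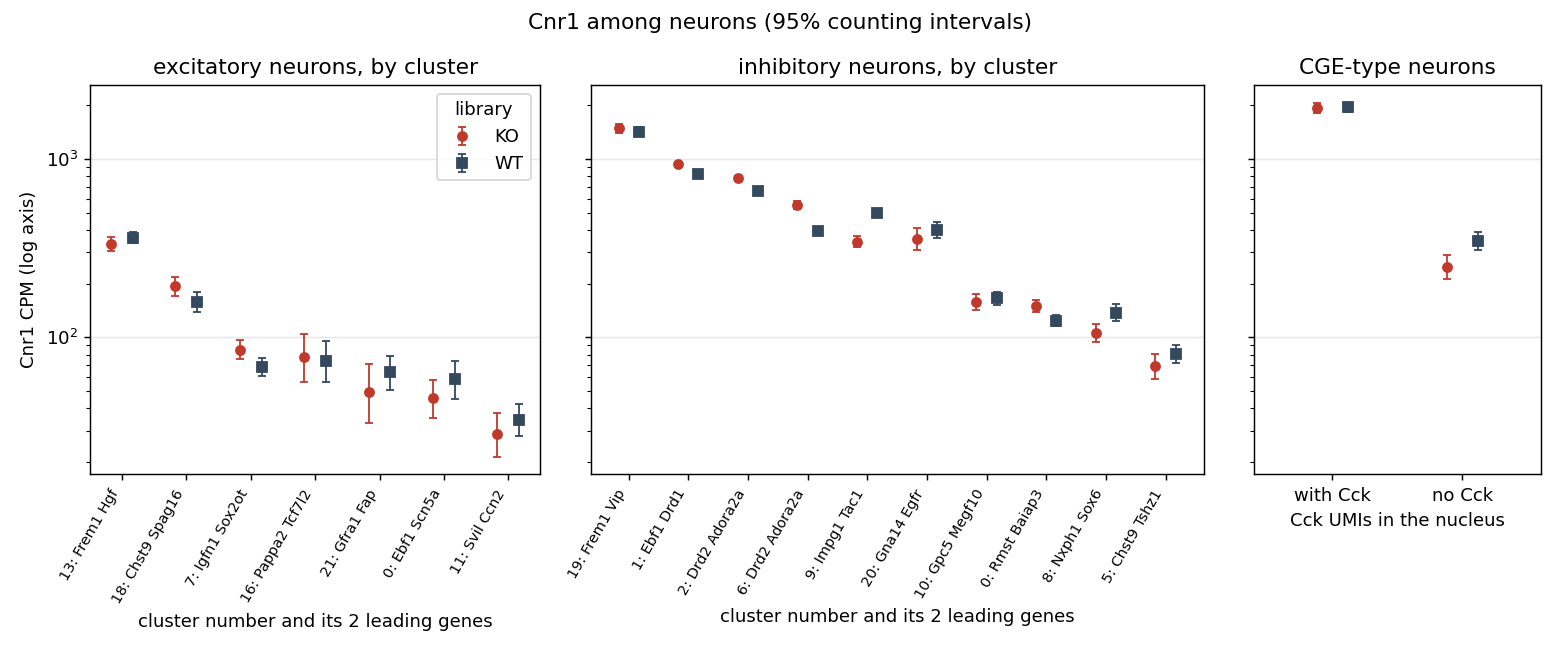
Cnr1 level in CPM (log axis) in gated excitatory neurons by cluster, gated inhibitory neurons by cluster, and CGE-type neurons with or without a Cck UMI, for the KO library (circles) and the WT library (squares), with exact 95% counting intervals. Both libraries show the same wide range, from about 30 CPM in the Svil cluster (28.7 in KO, 34.5 in WT) to 1940 CPM in KO and 1943 CPM in WT nuclei of the CGE type with Cck.

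In glia Cnr1 was lower than in neurons as a whole. It was hard to tell from RNA of other cells, such as the free RNA that droplets pick up from lysed cells. Astrocytes held 76.9 CPM in KO and 82.2 CPM in WT, which is 21.2% of the neuron level in KO and 22.1% in WT. A set of 8 neuron genes stood in astrocytes at a median of 18.3% of their neuron level in KO (6.13% to 90.9%) and 16.4% in WT (7.06% to 88.7%). The upper end was Ppp1r1b in both libraries, and the next highest was Gad1 at 22.1% in KO and Pde10a at 31.4% in WT. Cnr1 was within the range with or without Ppp1r1b. Oligodendrocytes held 75.3 CPM in KO and 79.5 CPM in WT, and precursors 85.3 CPM in KO and 121 CPM in WT. Microglia held 119 CPM in KO and 221 CPM in WT, the WT value being close to that of WT MGE-type neurons. This was 32.7% of the neuron level in KO and 59.3% in WT, where the 8 neuron genes ranged between 28.4% and 111% in KO and between 24.1% and 136% in WT. Ppp1r1b was again the highest of them, followed by Snap25 at 71.1% in KO and Syt1 at 63.6% in WT. Foxp2 Tshz1 neurons, at 16.6% of the neuron level in KO and 19.1% in WT, were no higher than these glia. Astrocytes were lower than neurons by -2.32 ± 0.12 (edgeR, adjusted p = 4.12e-10), where 22.5% of all genes were higher and 27.5% lower. Microglia were lower than neurons by -1.51 ± 0.19 (edgeR, adjusted p = 2.27e-14), where 12.9% of all genes were higher and 14.1% lower. Without the KO library this difference was -0.75, and without the WT library -1.61.

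Shares of nuclei with a UMI were compared after each nucleus was thinned to 1000 UMIs. A Cnr1 UMI was then found in 47.4% of KO (42.2% to 52.5%) and 47.3% of WT D1 neurons (43.5% to 51.1%), and in 36.0% of KO and 43.2% of WT CGE-type neurons. CGE-type neurons had the lower share but the higher CPM, so no order between these classes is read from the shares. It was found in 6.98% of KO and 8.38% of WT Foxp2 Tshz1 neurons, against 8.07% of KO and 6.78% of WT astrocytes. How much of these shares is RNA of other cells was not tested. Without thinning, the shares were 89.2% of KO and 86.1% of WT D1 neurons and 17.9% of KO and 19.9% of WT astrocytes. Median depths differed widely between those classes, with 9758 UMIs in KO and 9213 in WT D1 neurons, and 2774.5 UMIs in KO and 2746 in WT astrocytes.

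Dagla encodes the lipase known as the main source of 2-AG at synapses of the adult brain. It was spread over neurons and some glia, with no class that stood out. Rspo2 neurons held 67.4 CPM in KO and 75.3 CPM in WT, D1 neurons 63.2 CPM in KO and 68.2 CPM in WT, and Nr4a2 Ntng2 neurons 57.2 CPM in KO and 78.2 CPM in WT. CGE-type neurons, the class richest in Cnr1, were low in Dagla at 19.6 CPM in KO and 28.7 CPM in WT, and oligodendrocytes lowest at 14.5 CPM in KO and 14.96 CPM in WT. The interval of the highest class cleared 4 of the other 12 classes. Microglia held 49.1 CPM in KO (31 UMIs) and 66.7 CPM in WT (19 UMIs), or 104% of the neuron level in KO and 117% in WT. Of the 8 neuron genes, Ppp1r1b stood higher there, at 111% in KO and 136% in WT. The part of RNA of other cells in these values was not tested. Astrocytes held 39.1 CPM in KO and 46.9 CPM in WT, or 83.0% of the neuron level in KO and 82.4% in WT. The 8 neuron genes stood there at a median of 18.3% in KO and 16.4% in WT. The highest of them was Ppp1r1b, at 90.9% in KO and 88.7% in WT. The next was Gad1 at 22.1% in KO and Pde10a at 31.4% in WT, both below Dagla. Inhibitory neurons held less than excitatory neurons, with 45.3 CPM in KO and 52.7 CPM in WT against 51.5 CPM in KO and 70.0 CPM in WT (-0.38 ± 0.08 on the log2 scale, edgeR, adjusted p = 8.95e-06). Without the block this difference missed the threshold, and without the WT library it was -0.19. The other differences that passed or came near it were -0.39 ± 0.14 in astrocytes over neurons (edgeR, adjusted p = 0.035), lost with DESeq2, with stricter gates and without the block, and -0.62 ± 0.23 in CGE-type over MGE-type neurons (edgeR, adjusted p = 0.054).

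Daglb, the second diacylglycerol lipase, was highest in microglia, the immune cells of the brain, in which it is a known source of 2-AG. Microglia held 93.5 CPM in KO (71.2 to 121) and 63.2 CPM in WT (37.5 to 99.9), against 24.5 CPM in KO and 22.4 CPM in WT neurons. The difference was 1.49 ± 0.24 (edgeR, adjusted p = 1.07e-08). Over both libraries, the microglial interval lay above those of 7 of the other 12 classes. It overlapped those of Nr4a2 Ntng2, Rspo2 and Prlr neurons, vascular cells and oligodendrocyte precursors. These levels rest on 59 UMIs in KO and 18 UMIs in WT microglia. At 381% of the neuron level in KO and 282% in WT, they exceed what the 8 neuron genes reached in microglia (at most 111% in KO and 136% in WT). Inhibitory neurons held 21.5 CPM in KO and 19.5 CPM in WT, below excitatory neurons with 31.8 CPM in KO and 31.4 CPM in WT (-0.70 ± 0.09, edgeR, adjusted p = 1.26e-11). In the other 4 pairs of classes Daglb did not pass.

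Mgll, the enzyme that ends the 2-AG signal, was highest in astrocytes. They held 190 CPM in KO (168 to 213) and 171 CPM in WT (152 to 191), against 78.4 CPM in KO and 82.0 CPM in WT neurons. The difference was 1.05 ± 0.12 (edgeR, adjusted p = 2.21e-06). Over both libraries, the astrocyte interval lay above those of 10 of the other 12 classes. Microglia, with 105 CPM in KO and 126 CPM in WT, and oligodendrocyte precursors overlapped it. Some neuron clusters reached similar levels, as given below. Thinned to 1000 UMIs, 15.2% of KO and 16.7% of WT astrocytes held an Mgll UMI, against 8.14% of KO and 7.02% of WT inhibitory neurons. Without thinning the shares were 37.3% of KO and 33.9% of WT astrocytes, against 40.1% of KO and 40.1% of WT inhibitory neurons, whose nuclei are deeper. The lowest class was again Foxp2 Tshz1 neurons, with 32.1 CPM in KO and 26.6 CPM in WT. Inhibitory and excitatory neurons were not called different (0.14 ± 0.08, edgeR, adjusted p = 0.11). Oligodendrocytes were lower than their precursors by -0.63 ± 0.22 (edgeR, adjusted p = 0.016), where 17.9% of all genes were higher and 20.2% lower. That call was lost with DESeq2, without the filter on low counts and without the block.

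Among excitatory clusters Mgll ran in another order than Cnr1. The Svil cluster, lowest in Cnr1, was highest in Mgll, with 171 CPM in KO (152 to 191) and 195 CPM in WT (179 to 212). The cluster led by Igfn1, Sox2ot and Glis3 was lowest in both libraries, with 22.4 CPM in KO and 27.2 CPM in WT. In the inhibitory cluster led by Frem1, Vip and Pde5a, both genes were high, with 169 CPM of Mgll in KO and 158 CPM in WT.

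Faah, which ends the anandamide signal, went with excitatory neurons. Rspo2 neurons held 79.7 CPM in KO (65.9 to 95.5) and 88.7 CPM in WT (77.0 to 102), and Nr4a2 Ntng2 neurons 67.0 CPM in KO and 82.3 CPM in WT. Inhibitory neurons held 29.3 CPM in KO and 27.2 CPM in WT, against 70.4 CPM in KO and 76.3 CPM in WT excitatory neurons (-1.45 ± 0.08, edgeR, adjusted p = 1.95e-37). The medium spiny neurons, rich in Cnr1, were lowest among neurons in Faah. D2 neurons held 13.6 CPM in KO and 11.98 CPM in WT, and D1 neurons 18.1 CPM in KO and 19.7 CPM in WT (D2 over D1 -0.57 ± 0.17, edgeR, adjusted p = 0.0076). The D2 over D1 call was lost with DESeq2, with stricter gates and without the block. Astrocytes held 7.29 CPM in KO and 4.63 CPM in WT, or 11 UMIs in KO and 8 UMIs in WT, and were lower than neurons by -2.89 ± 0.25 (edgeR, adjusted p = 1.56e-07). Microglia were lower than neurons too, by -0.92 ± 0.31 (edgeR, adjusted p = 0.012), but not with DESeq2.

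Napepld was thinly counted, with 165 KO and 238 WT UMIs in all excitatory neurons. Its clearest class was oligodendrocytes, the myelin-forming cells, with 47.1 CPM in KO (38.6 to 56.9) and 44.9 CPM in WT (34.0 to 58.2), against 12.2 CPM in KO and 11.4 CPM in WT precursors. The difference was 1.98 ± 0.36 (edgeR, adjusted p = 3.04e-06). Among neurons, Foxp2 Tshz1 neurons held most, with 22.6 CPM in KO and 31.7 CPM in WT, followed by Rspo2 neurons with 22.5 CPM in KO and 20.7 CPM in WT. D1 neurons held 1.83 CPM in KO and 2.57 CPM in WT, and D2 neurons 2.81 CPM in KO and 2.996 CPM in WT. Inhibitory neurons were lower than excitatory neurons by -1.04 ± 0.12 (edgeR, adjusted p = 7.60e-13). No Napepld UMI was found in WT microglia, for which the exact interval reaches 12.96 CPM.

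Vascular nuclei gave the highest Napepld value of any class in the KO library, at 110 CPM (67.1 to 170, 20 UMIs), against 21.4 CPM in WT (2.59 to 77.2, 2 UMIs). The class holds unlike cells in unlike shares. A cluster with 51 KO and 6 WT nuclei held 2426 CPM of 5 fibroblast markers in KO and 2470 CPM in WT, while a cluster with 41 KO and 46 WT nuclei held 212 CPM in KO and 141 CPM in WT, with more endothelial and mural markers. The fibroblast-like cluster held 18 of the 20 KO UMIs of Napepld (147 CPM, 86.8 to 232, in 13 nuclei) and none in its 6 WT nuclei, whose upper bound of 294 CPM lies above that value. In the other cluster Napepld stood at 38.6 CPM in KO and 28.3 CPM in WT, from 2 UMIs each. Cnr1 in vascular nuclei was 60.4 CPM in KO and 192 CPM in WT, but 116 CPM in KO and 113 CPM in WT within the second cluster. A single WT nucleus, outside both clusters, held 9 of the 18 WT UMIs.

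Taking the 6 genes by genotype, none was past 1.5-fold between KO and WT in excitatory or inhibitory neurons. Over all genes with at least 50 UMIs, 5.17% were at least 1.5-fold higher and 3.52% at least 1.5-fold lower in KO excitatory neurons, and 5.46% higher and 3.11% lower in KO inhibitory neurons. The median log2 ratio of the 6 genes was -0.15 in excitatory and 0.03 in inhibitory neurons, beside 0.03 and 0.05 over all genes tested. The largest ratio was that of Dagla in excitatory neurons, at -0.44 (-0.59 to -0.29), followed by Mgll at -0.42 (-0.56 to -0.28). The interval lay above 0 for 1 of the 6 genes and below 0 for 2 in excitatory neurons, where it lay above 0 for 21.4% and below 0 for 17.5% of all genes. In inhibitory neurons it lay above 0 for none and below 0 for 1, where it lay above 0 for 28.9% and below 0 for 19.3% of all genes. For comparison, the 5th and 95th percentiles of all genes were -0.50 and 0.59 in excitatory neurons, and -0.46 and 0.60 in inhibitory neurons.

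Dagla was lower in KO in 11 of 12 classes that share no nucleus. Of all 6463 genes with a ratio in each of those classes, 7.33% were lower in KO in at least 11 of them. Its interval lay below 0 in both large classes, at -0.44 in excitatory neurons and -0.22 (-0.32 to -0.12) in inhibitory neurons. It also lay below 0 outside all subtype gates, at -0.45 (-0.64 to -0.27) in excitatory and -0.19 (-0.34 to -0.05) in inhibitory neurons, and covered 0 in each single subtype and each glial class with a ratio. After each nucleus was thinned to 1000 UMIs, the ratio was -1.22 in excitatory neurons and -0.01 in inhibitory neurons. At 1000 UMIs, 3.12% of KO and 7.37% of WT excitatory neurons held a Dagla UMI, and at 2000 UMIs 9.52% of KO and 11.96% of WT. The cause of these shifts was not tested. Prlr neurons were the exception in direction, with 41.6 CPM in KO and 32.0 CPM in WT (0.38, -0.32 to 1.09). In summed nuclei, less RNA per cell and fewer cells that hold it cannot be told apart.

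Cnr1 did not differ in inhibitory neurons as a whole beyond counting error, at 0.00 (-0.03 to 0.04), but this sum joined classes that went opposite ways. KO values were higher in D1 neurons by 0.20 (0.14 to 0.26), in D2 neurons by 0.30 (0.24 to 0.36) and in Prlr neurons by 0.72 (0.41 to 1.04). They were lower in MGE-type neurons, by -0.57 (-0.80 to -0.35), and in inhibitory neurons outside all subtype gates, with 272 CPM in KO and 337 CPM in WT (-0.31, -0.36 to -0.25). KO values in D1 and D2 neurons were also the higher ones within the clusters that make up these gates. In the smaller D1 cluster, however, the intervals of the libraries overlapped. In the larger D1 cluster, KO nuclei held 980 CPM and WT nuclei 849 CPM. In the smaller, 58 KO nuclei held 543 CPM (481 to 610) and 96 WT nuclei 471 CPM (426 to 519). In the larger D2 cluster, KO nuclei held 852 CPM and WT nuclei 713 CPM, and in the smaller KO nuclei held 800 CPM and WT nuclei 607 CPM. All inhibitory neurons of the cluster that holds the smaller D1 group went the other way, with 344 CPM in KO and 500 CPM in WT. After thinning, the shares of nuclei with a Cnr1 UMI were close, at 41.5% of KO and 41.9% of WT D2 neurons. Before thinning, 33.8% of KO and 23.9% of WT D2 nuclei held 10 or more Cnr1 UMIs. At the other end, 24.6% of KO and 19.7% of WT D2 nuclei held none, and the median was 4 in both. These unthinned shares are not matched for depth, with a median of 8830.5 UMIs in KO and 8151 in WT D2 nuclei.

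In excitatory neurons Cnr1 was higher in KO by 0.18 (0.09 to 0.28), but by 0.07 when both libraries were given the same subtype weights. Microglia showed 119 CPM in KO and 221 CPM in WT (-0.90, -1.40 to -0.39). No Cnr1 UMI was found in 83.6% of KO and 77.5% of WT microglia. The 8 neuron genes stood in microglia at a median of 42.3% of their neuron level in KO and 48.6% in WT, and their part in the difference was not tested.

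Mgll and Daglb also went both ways. Mgll was lower in KO oligodendrocytes, with 40.5 CPM in KO and 78.0 CPM in WT (-0.94, -1.37 to -0.52), in precursors with 68.6 CPM in KO and 117 CPM in WT (-0.77, -1.38 to -0.16), in Nr4a2 Ntng2 neurons (-0.69) and in MGE-type neurons (-0.39). It was higher in KO D1 neurons, with 109 CPM in KO and 89.1 CPM in WT (0.29, 0.10 to 0.47), and in Prlr neurons (0.77, 0.20 to 1.35). Daglb was higher in KO Nr4a2 Ntng2 neurons, with 53.6 CPM in KO and 27.9 CPM in WT (0.94, 0.29 to 1.59), and in oligodendrocytes (0.97, 0.09 to 1.94), and lower in KO Rspo2 neurons (-0.67, -1.30 to -0.07). Faah had no interval off 0 in any of 13 classes, and Napepld had 1 in 11 classes, the vascular one.

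**Figure D3:**
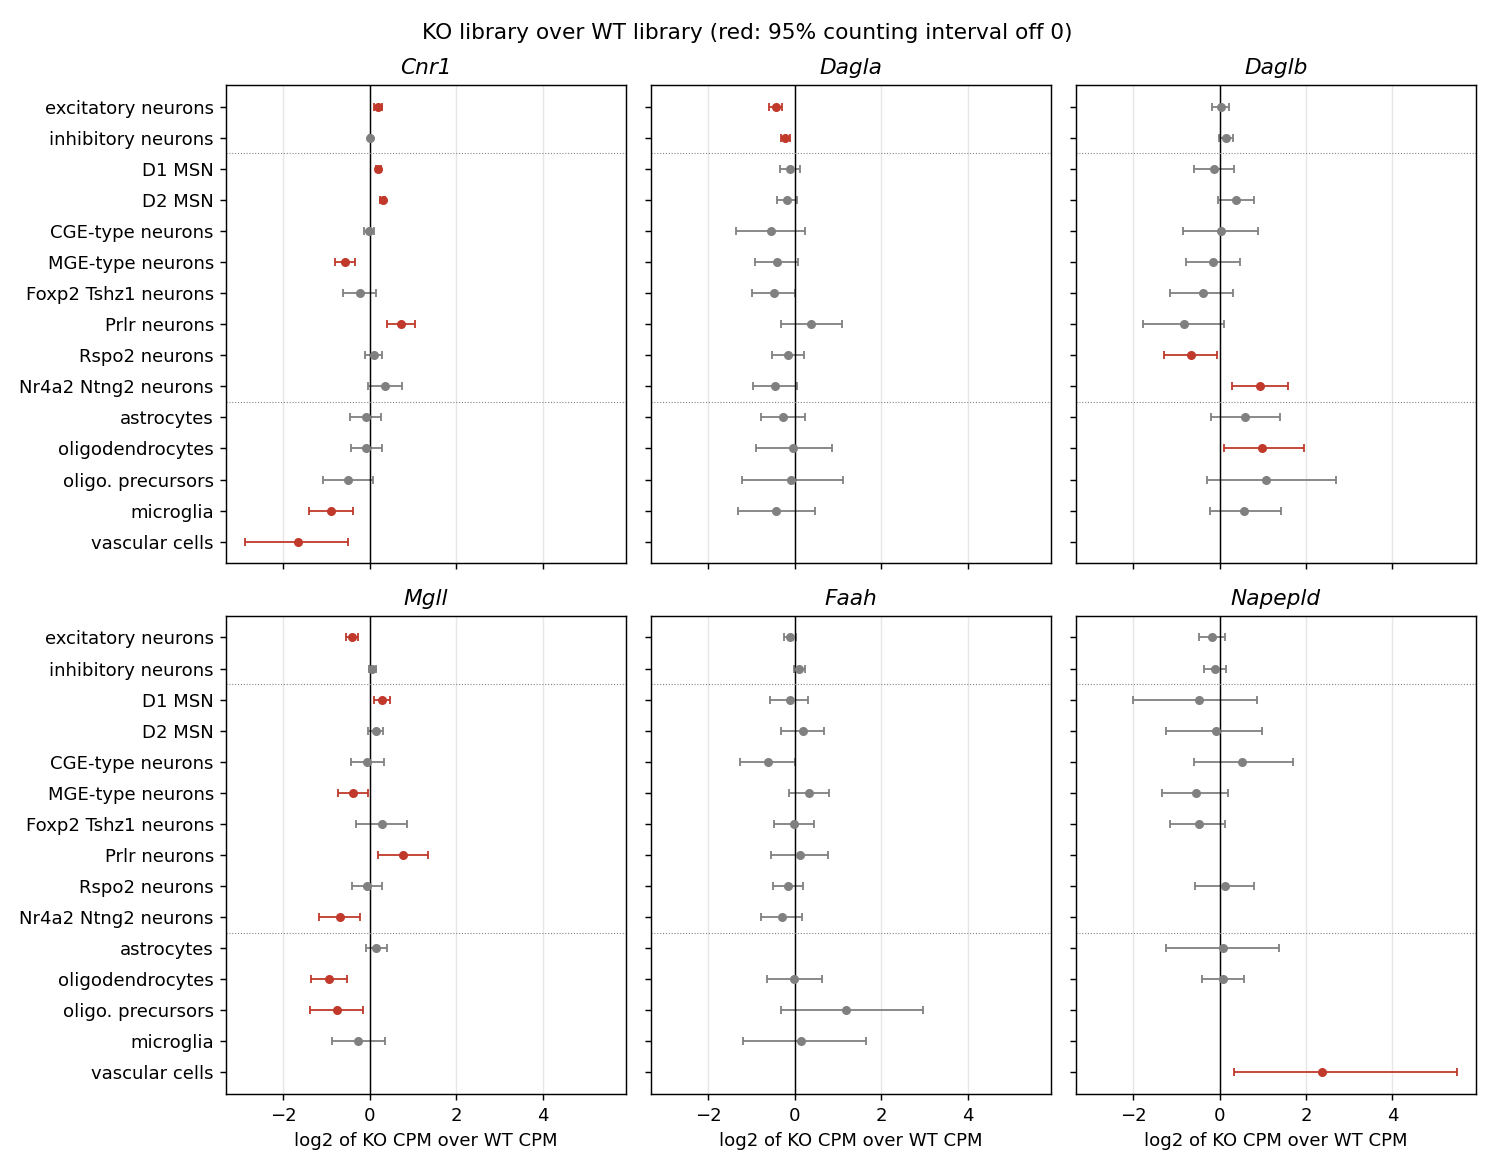
Log2 of KO CPM over WT CPM for each gene in each class with at least 20 UMIs over both libraries and at least 1 UMI in each, with exact 95% intervals for counting error (red where the interval excludes 0, grey where it covers 0). Dagla lies left of 0 in all classes but Prlr neurons, while Cnr1 lies right of 0 in D1, D2 and Prlr neurons and left of 0 in MGE-type neurons, microglia and vascular cells.

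Of 41 other genes of the pathway, all matched in the files, 30 had at least 50 UMIs in excitatory neurons and 35 in inhibitory neurons. In excitatory neurons none was past 1.5-fold in either direction, and their median log2 ratio was 0.00 beside 0.03 over all genes. In inhibitory neurons 2 of 35 were higher in KO and none was lower, with a median of -0.04 beside 0.05 over all genes. That count is near the background, since 5.46% of all genes were as much higher there, and is no result about the pathway. The 2 were Pla2g4e, a phospholipase A2 that transfers acyl chains in the making of anandamide precursors, and Gpr18, a receptor that binds N-arachidonoyl glycine. Pla2g4e held 43.3 CPM in KO and 20.2 CPM in WT inhibitory neurons (1.102, 0.97 to 1.23). It was higher in KO in 8 of 9 classes that share no nucleus, where 12.5% of all 8535 genes with a ratio in each were higher in at least 8. The ratio was highest in D1 neurons with 40.4 CPM in KO and 13.0 CPM in WT (1.63, 1.24 to 2.03), and below 0 in Rspo2 neurons with 25.9 CPM in KO and 32.3 CPM in WT (-0.32, -0.92 to 0.26). Pla2g4e lies on chromosome 2 from 120166412 to 120245335, which is 3.84 megabases from Sema6d. Gpr18 rested on 60 KO and 48 WT UMIs.

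The genes named next were chosen after their values were seen. The binding partners of the receptor differed in direction. Cnrip1, which binds the tail of the CB1 receptor, was higher in KO inhibitory neurons, with 64.8 CPM in KO and 51.0 CPM in WT (0.34, 0.25 to 0.43), and Sgip1, known to slow the internalisation of the receptor, was lower with 548 CPM in KO and 598 CPM in WT (-0.13, -0.15 to -0.10). Among the other genes of 2-AG, 4 of 7 had intervals above 0 and 1 below 0 in inhibitory neurons. Those above 0 were the phospholipase C gene Plcb4, with 128 CPM in KO and 103 CPM in WT (0.32, 0.25 to 0.38), the lipase gene Ddhd2 (0.28), and the 2-AG hydrolases Abhd12 (0.19) and Abhd6 (0.13). The phospholipase C gene Plcb1 was lower, with 2469 CPM in KO and 2832 CPM in WT (-0.20, -0.21 to -0.18). Over all genes tested, the interval lay above 0 for 21.4% and below 0 for 17.5% in excitatory neurons. In inhibitory neurons it lay above 0 for 28.9% and below 0 for 19.3% of all genes. Intervals are narrow for genes with many UMIs, so the counts by role are a description and no result about the pathway. Of the 5 Gq-coupled receptors, which drive 2-AG synthesis, 3 had intervals below 0 and 1 above 0 in each of the 2 neuron classes. Htr2a, a serotonin receptor, had the lowest ratio of them in excitatory neurons, with 64.4 CPM in KO and 90.4 CPM in WT (-0.49, -0.62 to -0.36). Of the 7 genes of Gi/o signalling, 4 had intervals below 0 and 1 above 0 in excitatory neurons, and 3 below and 3 above 0 in inhibitory neurons. Gnao1, the Go alpha subunit, was lower in both, with 341 CPM in KO and 457 CPM in WT excitatory neurons (-0.42, -0.48 to -0.37) and 366 CPM in KO and 442 CPM in WT inhibitory neurons (-0.27, -0.30 to -0.23). Cnr2, the receptor gene of immune cells, had 0 UMIs in both libraries in excitatory neurons and 2 in KO and 0 in WT inhibitory neurons.

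**Figure D4:**
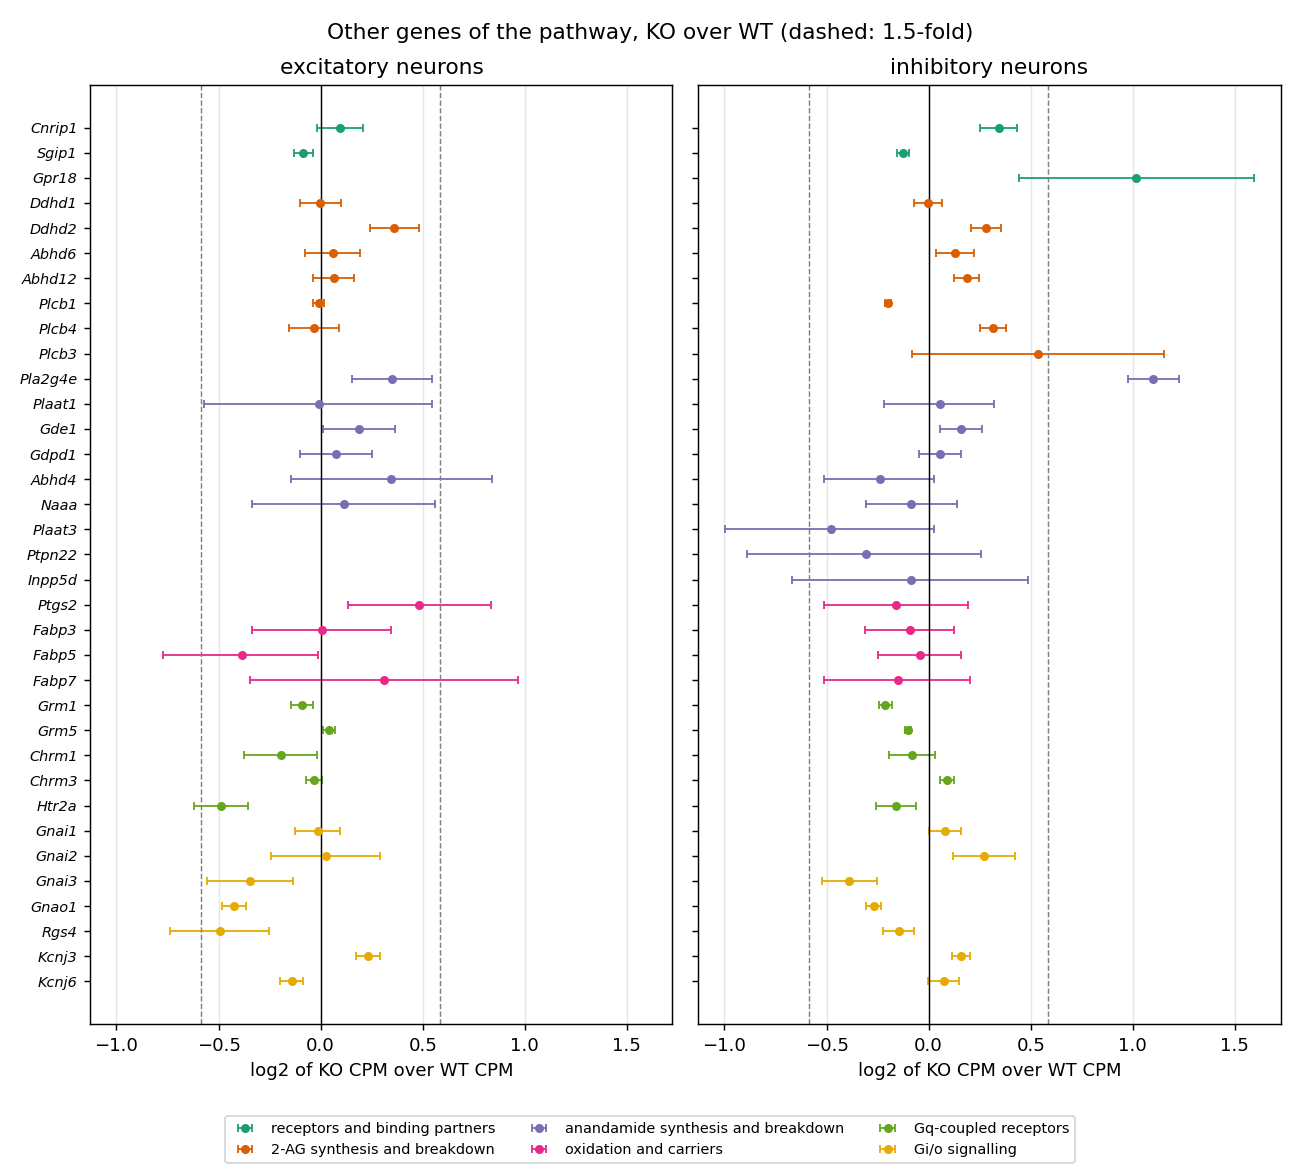
Log2 of KO CPM over WT CPM for the other genes of the pathway with at least 50 UMIs, in excitatory neurons (left) and inhibitory neurons (right), coloured by role, with exact 95% counting intervals and dashed lines at 1.5-fold. Pla2g4e (1.102) and Gpr18 (1.02) lie past the right dashed line in inhibitory neurons, and no gene lies past the left one in either class.

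Over the 26 values of 13 classes in 2 libraries, no pair of the 6 genes had a high correlation of log2(CPM + 1). The most positive was 0.35 between Cnr1 and Mgll and the most negative -0.62 between Mgll and Napepld. The genes whose pattern over these classes was most like that of Cnr1 were Gipc2 (Pearson's r = 0.85), Hs6st3 (0.82) and Reln (0.81), out of 11516 genes considered. For Daglb they included Syk (0.87) and Tlr13 (0.82). For Faah they were Slc22a14, Elavl3 and Vopp1 (all 0.89), and for Dagla Bhlhb9 (0.93), Dnajb5 (0.92) and Rbm15 (0.91). For Napepld they were Hs3st1 (0.79), Chp1 (0.77) and Slc9a3r2 (0.76), and for Mgll Zcchc4 (0.73), Hey1 (0.71) and Rfx4 (0.69). These are descriptions over points that share libraries and classes.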

How the data were processed

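Single nuclei were profiled with the 10x 5' chemistry in 1 KO and 1 WT library. Per the submitters' processing notes the tool was Cell Ranger 6.0.0 and the build mm10. The deposited values are raw UMI counts per gene and nucleus. The labels do not say whether introns or strand entered the counting. The 6 genes, the pathway list and the marker lists were chosen with earlier results of these data known, and the gate thresholds, the Cck split and the vascular split were set after the data had been seen.

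Nuclei with under 500 genes, over 5% mitochondrially encoded UMIs or a doublet call were left out (143, 428 and 222 nuclei in KO and 12, 259 and 422 in WT, of 8666 KO and 11060 WT barcodes). Gates used UMIs of marker genes, and nuclei passing several gates (585 KO, 441 WT) or none (1164 KO, 2007 WT) entered no class. Levels are counts of a gene per 1000000 UMIs of a class (CPM). Ratios needed at least 20 UMIs over both libraries, and pathway genes at least 50. Class differences were fitted with edgeR 4.0.16 (TMM, filter on low counts, library as block) on 4 sums each for 6 pairs of classes, with DESeq2 1.42.0 as an alternative, and the fit was tested on simulated data. Clusters came from scanpy 1.11.5 with Leiden. Thinning to 1000 UMIs left out 183 KO and 103 WT nuclei, and shares have Clopper-Pearson intervals. Beside the 6 genes, the pathway genes past 1.5-fold are named, and further pathway genes chosen after their values were seen. For each of the 6, the 3 genes with the highest correlation are also named. For Daglb, 1 of these is not reported here. Nothing says whether a library pools animals, so spread between libraries may be technical.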

Additional observations from a re-analysis of the deposited data

Results flagged for a closer look

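For 3 genes the KO over WT ratio had opposite signs in different classes of nuclei, with intervals that excluded 0 on both sides. The share of all genes with such opposite signs was not computed, so this count is no result about these genes. In excitatory neurons the interval lay above 0 for 21.4% and below 0 for 17.5% of all genes. In inhibitory neurons it lay above 0 for 28.9% and below 0 for 19.3%. The difference between classes was not tested, since there is 1 library per genotype. For Cnr1 the log2 ratio was 0.18 in excitatory neurons, 0.20 in D1 neurons, 0.30 in D2 neurons and 0.72 in Prlr neurons. With the same subtype weights in both libraries, the ratio in excitatory neurons was 0.07. The Cnr1 ratio was -0.57 in MGE-type neurons, -0.90 in microglia and -1.67 in vascular cells, where 1 WT nucleus held 9 of the 18 WT UMIs. For Mgll it was 0.29 in D1 neurons and 0.77 in Prlr neurons, but -0.39 in MGE-type neurons and -0.69 in Nr4a2 Ntng2 neurons. The Mgll ratio was also -0.42 in excitatory neurons, -0.94 in oligodendrocytes and -0.77 in their precursors. For Daglb the ratio was 0.94 in Nr4a2 Ntng2 neurons and 0.97 in oligodendrocytes, but -0.67 in Rspo2 neurons. In Prlr neurons the median nucleus held 9419 UMIs in KO and 7330 UMIs in WT, and the part of this depth was not tested.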

How the results depend on the processing

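Of the log2 KO over WT ratios under all alternatives, 563 were the same within counting error, 47 moved and 1 reversed. Some of the ratios counted as moved also changed sign, as given below. The reversed ratio was that of Cnr1 in vascular cells, which was 0.24 with classes from clusters. The settings were unlike in weight. Thinning to 1000 UMIs by itself moved 36 ratios and left 42 the same. Minima of 200 or 1000 genes and the keeping of doublets each left all 81 the same. Clusters gave no values for the neuron subtypes. Thinning to 1000 UMIs gave ratios in excitatory neurons of -1.22 for Dagla, -0.22 for Mgll, 0.17 for Faah and 0.23 for Napepld. Faah and Napepld changed sign there, from -0.12 and -0.18 before thinning, where both intervals covered 0. In inhibitory neurons thinning gave 0.0454 for Cnr1, -0.0116 for Dagla and 0.22 for Mgll. Cnr1 in inhibitory neurons changed sign from 0.0043 to -0.0442 with TMM and -0.0506 with median-of-ratios scaling. In excitatory neurons the Cnr1 ratio was 0.0714 with the same subtype weights. Daglb in microglia from clusters was 151 CPM in KO and 118 CPM in WT, and Cnr1 in CGE-type neurons with stricter gates 1098 CPM in KO and 1096 CPM in WT. Pathway genes past 1.5-fold higher in KO excitatory neurons numbered 2 at a minimum of 20 UMIs and 1 with the same subtype weights. In KO inhibitory neurons 1 was higher after thinning and 1 at a minimum of 200 UMIs, and 1 was lower with stricter gates and 1 from clusters. The labels give no replicate numbers, so the replicate block is the library. Without the replicate block these differences missed the threshold: Dagla in inhibitory over excitatory neurons (-0.38), Cnr1 (-0.13) and Faah (-0.55) in D2 over D1 neurons, Dagla in astrocytes over neurons (-0.39) and Mgll in oligodendrocytes over precursors (-0.62). DESeq2 lost Cnr1 (-0.13) and Faah (-0.54) in D2 over D1 neurons, Dagla in astrocytes (-0.36), Faah in microglia (-0.89) and Mgll in oligodendrocytes (-0.63). Stricter gates lost Cnr1 (-0.12) and Faah (-0.54) in D2 over D1 neurons and Dagla in astrocytes (-0.30), and gained Dagla in oligodendrocytes (-1.05). With no filter on low counts, Daglb in astrocytes passed (-0.55) and Mgll in oligodendrocytes did not (-0.53). With 1 library left out at a time, which leaves values with no test, inhibitory over excitatory neurons ranged between 1.68 and 1.86 for Cnr1, -0.41 and -0.19 for Dagla, -0.0127 and 0.47 for Mgll, and -1.49 and -1.26 for Faah. CGE-type over MGE-type neurons ranged between 2.15 and 2.70 for Cnr1 and between -0.73 and 0.21 for Faah. Microglia over neurons ranged between -1.61 and -0.75 for Cnr1 and between 0.42 and 0.63 for Mgll, and oligodendrocytes over precursors between 0.0285 and 1.23 for Faah. The cause of these shifts was not tested. Low counts limit Napepld in all classes and every gene in vascular cells and microglia.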

Other observations

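Some gates held under 50 nuclei in one library and entered no comparison. Neurons gated by Sim1, a transcription factor of hypothalamic and medial amygdala neurons, numbered 79 in KO and 27 in WT, and held 465 CPM of Cnr1 in KO (376 UMIs) and 295 CPM in WT (88 UMIs). Their Faah level was 76.7 CPM in KO and 121 CPM in WT. Cholinergic neurons numbered 37 in KO and 87 in WT, and held 68.6 CPM of Cnr1 in KO and 75.2 CPM in WT, with 28.8 CPM of Faah in KO and 24.0 CPM in WT.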
